A study of Rattus norvegicus with 24 samples.

Results

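The mitochondrial ribosomal proteins described here are the genes whose platform symbol starts with Mrpl or Mrps followed by a digit. The array carries 59 such probes for 59 genes, and 57 of them were members, that is, detected (detection p under 0.05) on at least 6 of 24 arrays. They are 57 of the 22523 probes on the array and 57 of the 10193 probes that passed the same filter and were tested. Expression was measured on Illumina rat arrays in epithelial cells of the proximal and distal colon, which were loosened with EGTA and EDTA and shaken off by vortexing. All rats were Sprague Dawley and 8 months old.

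Control rats on normal chow formed the group CND (6 samples) and control rats on a high-fat diet the group CHFD (5 samples). Rats born with intra-uterine growth retardation (IUGR), poor growth before birth, formed the group RND (6 samples) on chow and the group RHFD (3 samples) on the high-fat diet. The sources used here do not say how growth was restricted, how long the diet lasted or which sex the rats were. Each group had 6 arrays, 3 on each of 2 chips. Arrays whose titles share a number were taken as 1 sample, since 4 title numbers stand on 2 arrays. The labels do not say that samples are separate animals, so p-values measure the spread between these samples, which may be partly technical. Titles also carry a letter of unstated meaning, and within CND it follows the chip (A for the 3 samples of chip 1, B for those of chip 2), so that group cannot separate the effects of both. Every RND sample carries the letter B.

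Mitochondria carry their own ribosomes, which translate the few proteins encoded by mitochondrial DNA, all of them core parts of the respiratory chain and the ATP synthase. The ribosomal RNAs come from mitochondrial DNA, but every ribosomal protein is encoded in the nucleus, made in the cytosol and imported. The large subunit joins amino acids and holds the exit tunnel, and the small subunit binds the messenger RNA and reads its codons. Some proteins descend from bacterial ribosomal proteins and others were added in the mitochondrial lineage. In the colon, epithelial cells at the top of the crypt burn butyrate in their mitochondria, and dividing cells at its base need proteins for new mitochondria.

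Of the 57 members, 35 are named Mrpl and 22 Mrps. By their place in the assembled ribosome 37 belong to the large subunit, including Mrps18a and Mrps30 despite their names, and 20 to the small subunit. A counterpart in the bacterial ribosome is known for 35 members, and 22 have none. The genes lie on 16 chromosomes, with 12 on chromosome 1, 8 on chromosome 10 and 7 on chromosome 4. No gene had more than 1 probe, and all 57 platform symbols equal the current RefSeq symbols.

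The promoters of the members, which were chosen by symbol and detection, were compared with those of all rat genes at hand. RefSeq promoters (assembly GRCr8, 250 bases before to 50 after the transcription start) were at hand for 46 members, 1 of which has 2, giving 47 promoters. Nuclear genes for mitochondrial proteins are known as targets of NRF1, of GABP, which binds ETS motifs, and of YY1. Both strands were searched for GCGCATGC (NRF1 core), CCGGAAG (ETS core) and AAGATGGCG (YY1 core). At least 1 of these was found in 23 of the 47 promoters (48.9%), against 12% of all 33469 rat promoters in the table. The NRF1 core was in 5 member promoters (10.6%, against 2.47% of all), the ETS core in 14 (29.8% against 8.75%) and the YY1 core in 9 (19.1% against 1.73%). The GC box of SP1, written GGGCGG, was in 23 (48.9% against 33.1%). The E-box, with the letters CACGTG, was in 5 (10.6% against 6.42%). The core promoter box spelled TATAAA was in 7 (14.9% against 14.2%). No motif here is part of another. These matches describe letters and do not show that a factor binds.

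Promoters of 4 members to which the measurements return are printed here with every match to these motifs in capitals. Mrpl50 had the smallest p for birth status on chow and Mrpl36 the next smallest, Mrps5 had the smallest p for diet in IUGR rats, and Mrpl18 was on or off by sample. The Mrpl50 window is chr5:68668038-68668337 on the minus strand, the Mrpl36 window chr1:31795072-31795371 on the minus strand, the Mrps5 window chr3:135274083-135274382 on the plus strand and the Mrpl18 window chr1:50384702-50385001 on the plus strand.
Mrpl50: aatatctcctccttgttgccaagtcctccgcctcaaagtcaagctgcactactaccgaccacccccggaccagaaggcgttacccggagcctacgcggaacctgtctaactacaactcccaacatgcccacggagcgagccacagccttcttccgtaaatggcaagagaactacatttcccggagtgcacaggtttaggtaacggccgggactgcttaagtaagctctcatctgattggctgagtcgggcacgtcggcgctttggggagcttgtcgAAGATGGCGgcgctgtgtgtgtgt
Mrpl36: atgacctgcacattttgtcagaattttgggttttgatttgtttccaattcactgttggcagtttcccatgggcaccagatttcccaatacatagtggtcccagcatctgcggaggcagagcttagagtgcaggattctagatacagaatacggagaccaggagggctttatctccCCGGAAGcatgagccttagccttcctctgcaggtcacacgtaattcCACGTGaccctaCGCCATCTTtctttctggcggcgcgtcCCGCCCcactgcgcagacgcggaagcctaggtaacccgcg
Mrps5: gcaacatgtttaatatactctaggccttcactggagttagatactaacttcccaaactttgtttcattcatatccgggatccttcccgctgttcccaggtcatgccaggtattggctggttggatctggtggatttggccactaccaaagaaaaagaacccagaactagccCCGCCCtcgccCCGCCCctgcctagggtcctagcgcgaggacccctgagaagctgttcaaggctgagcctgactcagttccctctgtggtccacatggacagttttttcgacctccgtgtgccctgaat
Mrpl18: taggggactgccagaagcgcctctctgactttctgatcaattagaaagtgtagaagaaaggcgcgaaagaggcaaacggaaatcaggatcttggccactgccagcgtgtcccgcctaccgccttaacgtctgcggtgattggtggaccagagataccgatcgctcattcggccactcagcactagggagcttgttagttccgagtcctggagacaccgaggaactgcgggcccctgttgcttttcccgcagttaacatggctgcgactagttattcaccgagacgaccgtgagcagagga
Mrpl50 holds a YY1 core just after its start site. Mrpl36 holds an ETS core, an E-box, a YY1 core and a GC box, Mrps5 holds a pair of GC boxes, and the Mrpl18 window holds none of the 6 motifs.

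Many members also share their promoter region with a neighbour read in the opposite direction. Such a neighbour, with its start within 1000 bases, was found for 14 of the 46 members (30.4%), against 11% of all promoters in the table. Mrpl46 and Mrps11 are each other's neighbour, with 234 bases between their starts, so a large and a small subunit gene leave from 1 region. Mrpl47 lies 244 bases from Ndufb5, a subunit of respiratory complex I, and Mrpl18 lies 425 bases from Tcp1, a subunit of the cytosolic chaperonin. Mrpl51 lies 50 bases from Ncapd2, a condensin subunit that compacts chromosomes in mitosis.

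The transcripts were well above background in these cells. Of the 57 members, 53 were detected on all 24 arrays and Mrps2, whose bacterial counterpart is S2, on 23. The members closest to the detection rule were Mrps10, detected on 12 arrays, and Mrpl18 and Mrps15, on 9 each. On the other side of the rule, Mrpl30 and Mrps31 were detected on 0 of 24 arrays, and their raw intensities of 84 to 107 overlap the range of 91 to 125 seen for Mrps15. Mean log2 levels after background correction ran from 4.70 for Mrps15, 4.99 for Mrps10 and 5.44 for Mrpl14 to 10.86 for Mrps12, 11.06 for Mrpl52 and 11.15 for Mrps18b. Probes differ in how strongly they bind, so this order does not rank the transcripts.

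The cells carried epithelial markers, as labelled, together with some markers of other cells. All 11 epithelial markers were tested, and their mean log2 level lay between 12.56 and 13.24 in every sample. None of the 8 fibroblast and smooth muscle markers, 2 endothelial markers or 3 markers of enteric glia and neurons on the array passed the detection filter. Of these, only Col3a1, Lum, Tagln, Cdh5 and the 3 glia and neuron markers were detected on no array. Immune markers did pass, at a mean level of 5.07 to 8.63 for 11 T and natural killer cell markers, and they moved with diet as described with the diet comparisons. So did 2 red blood cell markers pass, at a mean level of 5.03 to 8.74 over samples, and 2 adipocyte markers, at 4.69 to 7.54. In such mixed samples, fewer cells of a type and less RNA per cell cannot be told apart.

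No member passed the threshold, an adjusted p under 0.05 in limma over all 10193 probes, in any of the 7 comparisons. The differences described below are therefore values that did not pass, except those between chips. Members varied among samples of a group about as much as other transcripts, with a median SD within groups of 0.294 against 0.291 for all probes tested. The SD was smallest for Mrps15 (0.176), Mrpl1 (0.191) and Mrpl52 (0.192), and largest for Mrpl18 (1.82), Mrps10 (0.563) and Mrps2 (0.433). Mrps15 was near background, where a small spread is easily reached. Its level and that of Mrps10 rest on few detected arrays.

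**Figure D1:**
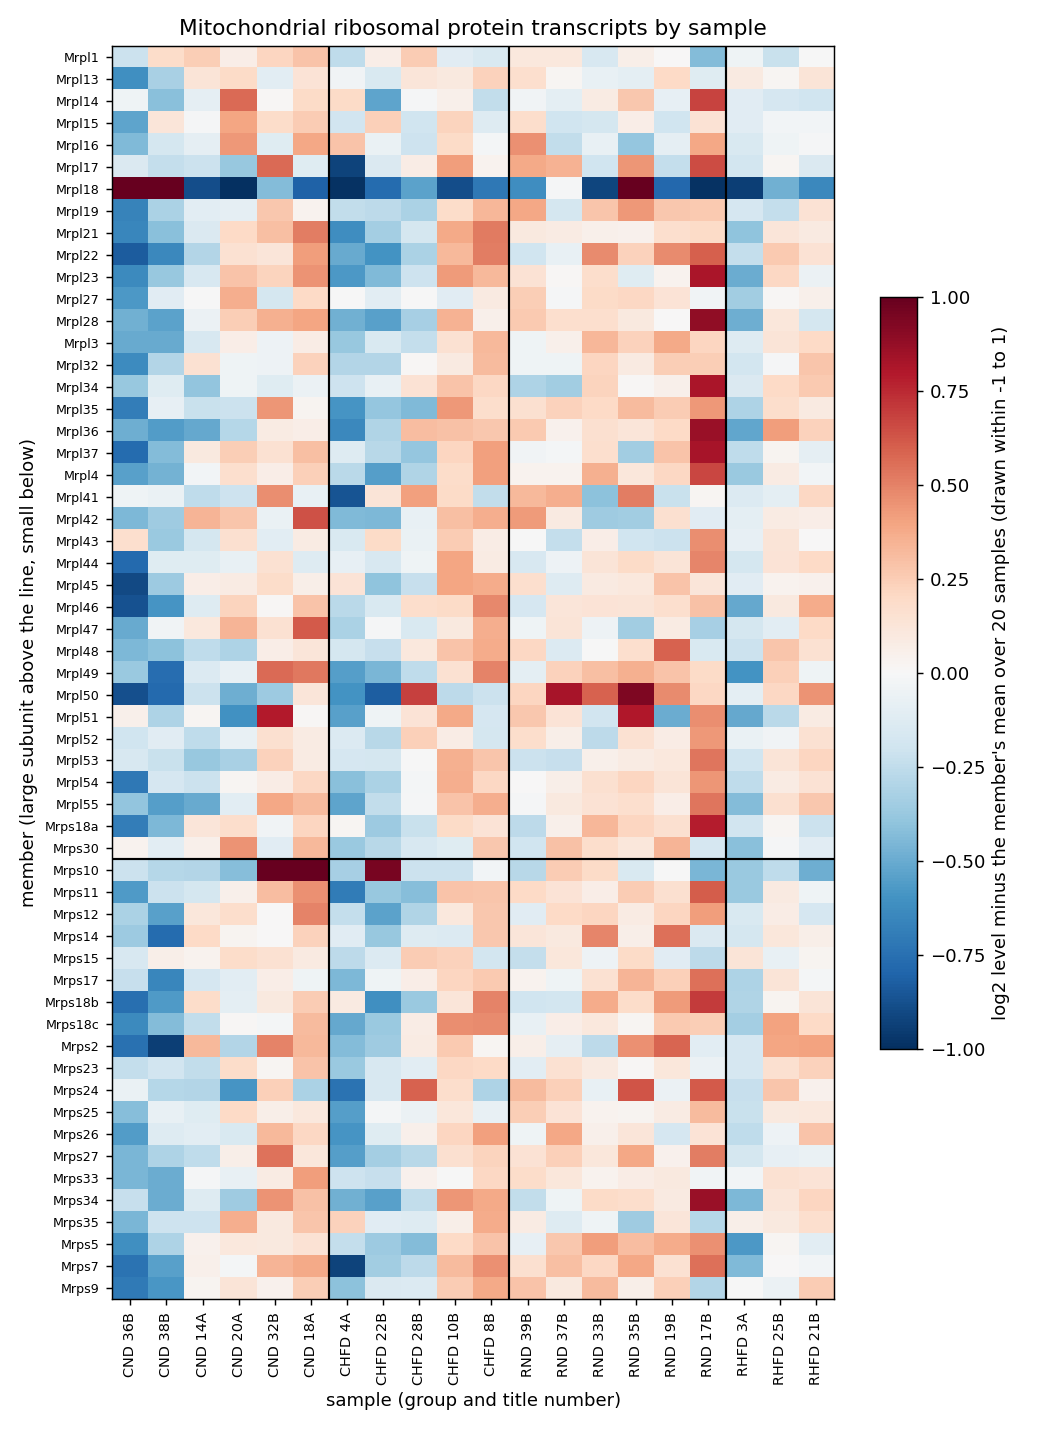
Log2 level of each of the 57 members (rows) in each of the 20 samples (columns), as the difference from that member's mean over samples, drawn within -1 to 1; groups are divided by vertical lines and samples sorted within a group by the median of the members. Samples CND 36B, CND 38B, CHFD 4A and CHFD 22B are low (blue) across most members, RND samples are mostly high (red), and Mrpl18 shows 3 samples far above the rest.

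The members moved together from sample to sample. In CND 36B only 4 of 57 members were above their own mean over samples, and in CND 38B also 4, whereas in CND 18A 50 were. In CHFD the count ran from 5 in CHFD 22B and 6 in CHFD 4A to 49 in CHFD 10B, and it was 3 in RHFD 3A. Over all probes tested the share above their own mean stayed between 45.7% and 55.0% in every sample. Quantile normalization gives every array the same distribution, which limits how far this share can move. Of the low samples, CND 36B, CND 38B, CHFD 4A and CHFD 22B were on chip 2 alone and RHFD 3A on both chips. CND 32B and RND 35B, 37B and 39B, also on chip 2 alone, had 44, 48, 37 and 32 members above their mean. The counts of members, and the deviations given below, are not adjusted for the chip. The low samples come from CND, CHFD and RHFD, and no RND sample had fewer than 32 members above their mean.

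The median over members of the deviation from each member's mean summarises this. In CND it was -0.48 at the lowest (36B) and 0.23 at the highest (18A), with a mean of -0.09 ± 0.27 (SD, n = 6). In CHFD it was -0.37 (4A), -0.27 (22B), -0.10 (28B), 0.21 (10B) and 0.27 (8B), with a mean of -0.05 ± 0.28 (SD, n = 5). In RND it lay between 0.06 (39B) and 0.32 (17B), with a mean of 0.14 ± 0.09 (SD, n = 6). In RHFD it was -0.20 (3A), 0.08 (25B) and 0.09 (21B), with a mean of -0.01 ± 0.16 (SD, n = 3). The groups overlap, and RND is the only group with all of its samples above 0. Both subunits followed the same course: in CND 36B the median was -0.50 for the large and -0.46 for the small subunit, and in RND 17B it was 0.39 and 0.28.

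Related lists were also negative in the samples with low members, some of them only slightly. In CND 36B the median deviation was -0.27 for 57 subunits of oxidative phosphorylation, the respiratory chain and ATP synthase, and -0.36 for 60 cytosolic ribosomal proteins. In CND 38B these were -0.08 and -0.34, and in CHFD 4A -0.33 and -0.19. In CHFD 22B they were -0.11 and -0.21, and in RHFD 3A -0.19 and -0.05. The oxidative phosphorylation value of CND 38B was no lower than the -0.09 of CND 14A. The 14 proliferation markers were at -0.35 in CND 36B, -0.43 in CND 38B, -0.97 in CHFD 22B and -0.39 in RHFD 3A, against 0.68 in CND 18A. They did not follow the members everywhere. In RHFD 21B and 25B they were at -0.44 and -0.31, with the members at 0.09 and 0.08. In CND 14A they were at 0.47, with the members at -0.12. The 11 epithelial markers were at 0.15 in CND 36B, 0.12 in CND 38B and 0.20 in CHFD 22B. They were at 0.03 in CHFD 4A, where the members were low, and at 0.18 in RND 35B, where the members were high. The part of the cell mixture in the members' level was not tested.

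**Figure D2:**
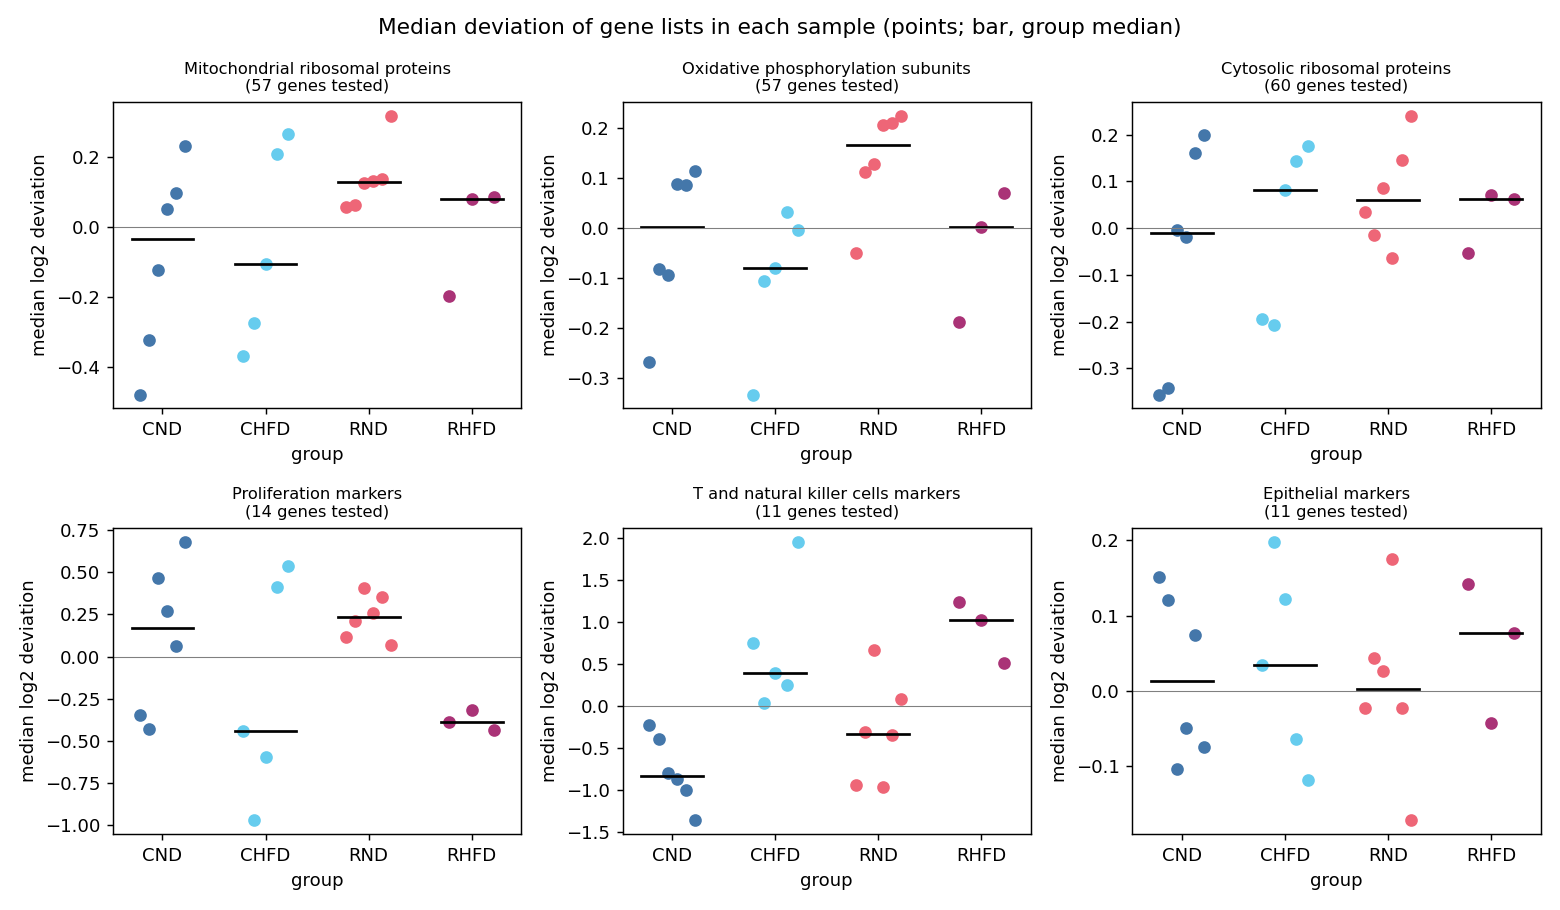
Median deviation (log2) of 6 gene lists in each sample, by group, with points for samples (20 in all) and bars for group medians; a list's deviation is the median over its genes of the level minus the gene's mean over samples. Within CND the mitochondrial ribosomal proteins, oxidative phosphorylation subunits and cytosolic ribosomal proteins are all lowest in 36B. All 3 lists are negative in CND 38B, CHFD 4A and CHFD 22B, though the oxidative phosphorylation subunits only slightly in CND 38B. The T and natural killer cell markers are higher in both high-fat groups, with some overlap between RND and RHFD.

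The effect of IUGR on chow compares RND with CND. Most mitochondrial ribosomal proteins were higher in RND: 48 of 57 members (84.2%) had a positive difference, against 51.2% of all probes tested. Their median log2 difference was 0.25, against 0.01 for all probes. None passed the threshold, nor did any other probe (percent called 0%), and 13 members (22.8%) had an unadjusted p under 0.05, against 12.1% of all probes. The large subunit (31 of 37 higher, median 0.23) and the small subunit (17 of 20, median 0.25) gave alike values. Members with a bacterial counterpart (29 of 35, median 0.26) and those without (19 of 22, median 0.18) also did. Within chip 1 the median was 0.15 with 40 members higher, and within chip 2 it was 0.34 with 52 higher. On chip 1 all CND samples carry the letter A and all RND samples B, so birth status and letter cannot be told apart there. With the letter as a term the median was 0.20, with 45 members higher and 6 at an unadjusted p under 0.05. The median was 0.15 without CND 36B, with 48 members higher, and 6 members then had an unadjusted p under 0.05. Without CND 38B that count was 5, at a median of 0.17, and without RND 35B it was 7.

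Mrpl50, a large subunit protein with no bacterial counterpart (chromosome 5), showed the clearest difference. In CND its lowest, median and highest levels were 6.08, 6.53 and 7.08, and in RND they were 7.17, 7.49 and 7.89. All 6 RND samples lay above all 6 CND samples, which held for this member alone, while 0.392% of all probes separated in this direction and 0.363% in the other. The log2 difference was 0.97 (SE 0.20, 95% interval 0.55 to 1.39), a fold of 1.96, with an unadjusted p of 6.92e-05 and an adjusted p of 0.174 by limma. It was 0.62 within chip 1 and 1.33 within chip 2, and 0.59 without background correction.

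On the high-fat diet Mrpl50 was 6.13 (22B), 6.36 (4A), 6.69 (10B), 6.74 (8B) and 7.64 (28B) in CHFD. In RHFD it was 6.86 (3A), 7.17 (25B) and 7.41 (21B). CHFD 28B alone was above every RHFD sample, and the other 4 CHFD samples were below all of them. The difference on this diet was 0.43 (SE 0.25, adjusted p = 1.00 by limma). Averaged over diet it was 0.70 (SE 0.16, adjusted p = 0.361), and without CHFD 28B it was 0.81 with an adjusted p of 0.0408.

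Mrpl36, a small protein of the large subunit (chromosome 1), had the next smallest p. In CND its lowest, median and highest levels were 9.32, 9.49 and 9.96, and in RND 9.92, 10.05 and 10.74. The groups overlap by 2 CND samples, 18A and 32B, which lay above the lowest RND sample. The log2 difference was 0.56 (SE 0.19, adjusted p = 0.263 by limma).

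The other 11 members with an unadjusted p under 0.05 were all higher in RND, by 0.31 to 0.50 on the log2 scale, with adjusted p from 0.263 to 0.409. They were Mrpl3, Mrpl4, Mrpl19, Mrpl22, Mrpl35 and Mrps18a of the large subunit and Mrps5, Mrps14, Mrps17, Mrps18b and Mrps24 of the small one. Mrpl3, Mrpl4 and Mrps17 have counterparts that bind ribosomal RNA and take part in subunit assembly in bacteria. Mrps17 was 8.62 ± 0.25 in CND and 9.02 ± 0.22 in RND (SD, n = 6 each). Mrpl3 was 8.85 ± 0.27 in CND and 9.23 ± 0.16 in RND (SD, n = 6 each).

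A negative difference was seen in 9 members. The smallest p among them belonged to Mrpl47, which lies at the exit of the tunnel (-0.21, SE 0.15, adjusted p = 0.595), and Mrpl1, whose bacterial counterpart forms the stalk past which transfer RNA leaves (-0.18, SE 0.15, adjusted p = 0.624). Within chip 2 both were slightly higher in RND, by 0.04 and 0.03. Ndufb5, which shares its promoter region with Mrpl47, was higher in RND by 0.21 (SE 0.11, adjusted p = 0.430 by limma); whether the pair differ was not tested. Ncapd2, the neighbour of Mrpl51, was higher by 0.57 (SE 0.20, adjusted p = 0.263), against 0.17 (SE 0.22, adjusted p = 0.779) for Mrpl51. Mrpl46 (0.29, SE 0.18) and Mrps11 (0.26, SE 0.19), which share a region, had close values, both near the members' median of 0.25. With diet in control rats they ran opposite ways. The mean of Mrpl46 was 7.44 in CND and 7.71 in CHFD, and that of Mrps11 was 8.62 and 8.46.

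Several other lists were also higher in RND on chow. Of the oxidative phosphorylation subunits 45 of 57 were higher (median 0.15), of the cytosolic ribosomal proteins 47 of 60 (median 0.14), of the genes for assembly of the mitochondrial ribosome and modification of its RNA 16 of 21 (median 0.18), and of the mitochondrial aminoacyl-tRNA synthetases 9 of 12 (median 0.16). Mitochondrial translation factors (7 of 11, median 0.08), import and protease genes (16 of 26, median 0.08) and genes for transcription and copying of mitochondrial DNA (9 of 17, median 0.02) were closer to the 0.01 of all probes. Of the 4 tested mitochondrial ribosomal proteins with other symbols, 3 were higher (median 0.10). None of these genes passed the threshold. The proliferation markers were higher for 10 of 14 (median 0.17) and the T and natural killer cell markers for 10 of 11 (median 0.49). Macrophage and dendritic cell markers were higher for 6 of 6 (median 0.62) and mast cell and granulocyte markers for 2 of 3 (median 0.32). The enteroendocrine markers were lower for 4 of 4 (median -0.68), colonocyte markers for 4 of 4 (median -0.17) and goblet markers for 4 of 5 (median -0.10), with none of these markers past the threshold. Their part in the members' difference was not tested.

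**Figure D3:**
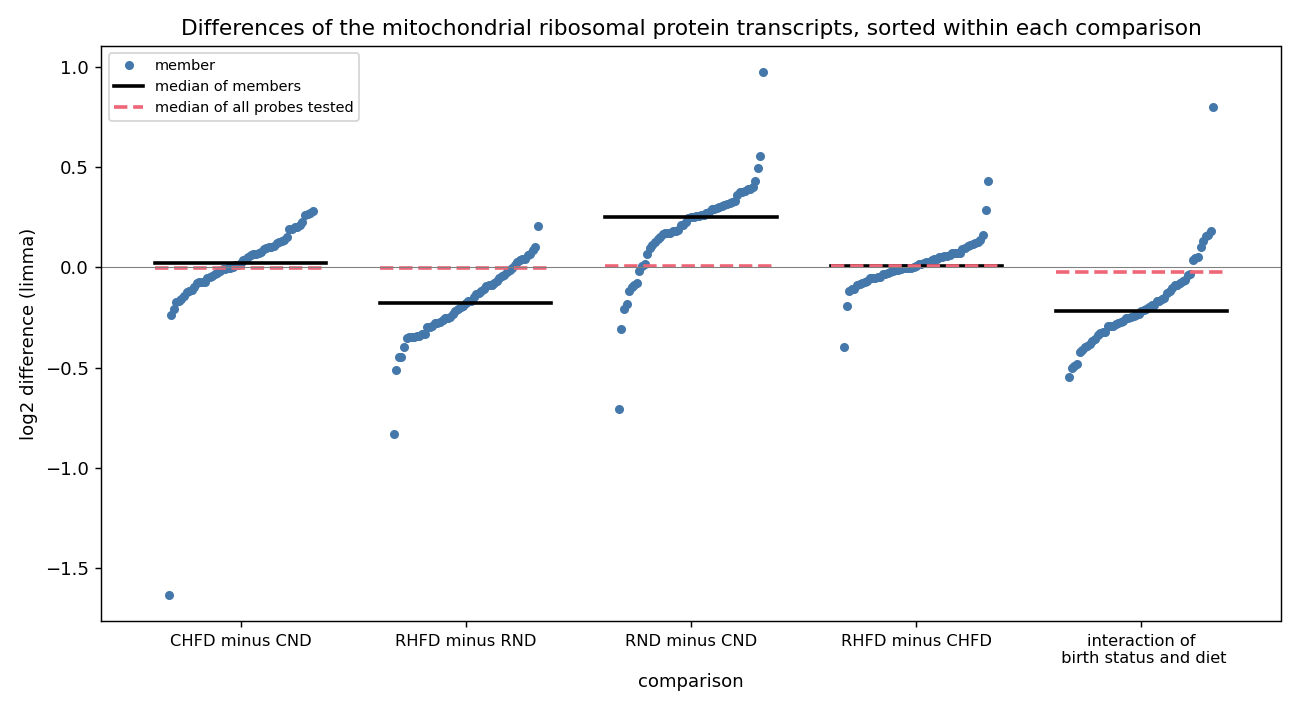
Log2 difference of each of the 57 members (points, sorted) in 5 comparisons, with the median of the members (solid line) and of all 10193 probes tested (dashed line). The members' median is 0.25 for RND minus CND and -0.18 for RHFD minus RND, and close to 0 for CHFD minus CND and RHFD minus CHFD, with Mrpl18 as the low point at -1.63 in CHFD minus CND.

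Diet in IUGR rats was assessed as RHFD against RND, a comparison that shares the RND samples with the comparison above. Most members were lower in RHFD: 47 of 57 had a negative difference and 10 a positive one (17.5% positive, against 49.4% of all probes), with a median of -0.18 against -0.004 for all probes. None passed the threshold, against 0.883% of all probes, and 1 member (1.75%) had an unadjusted p under 0.05, against 9.56% of all. Under median scaling in place of quantile normalization 55 members were lower and 2 higher, while the median of all probes was itself at -0.10. Without RHFD 3A the median was -0.05, with 37 members lower and 20 higher. Within chip 1 it was -0.20 and within chip 2 -0.10.

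Mrps5 (chromosome 3), whose bacterial counterpart lines the entry of the messenger RNA channel in the small subunit, had the smallest p. In RND its lowest, median and highest levels were 8.60, 9.03 and 9.14, and in RHFD it was 8.11 (3A), 8.58 (21B) and 8.71 (25B). All RND samples but 1 lay above all RHFD samples, and that one, RND 39B, lay between RHFD 21B and RHFD 25B. The log2 difference was -0.51 (SE 0.18, unadjusted p = 0.0093, adjusted p = 0.273 by limma). Without RHFD 3A it was -0.33, and over the samples left out in turn it lay between -0.63 and that value. Mrps18a, of the large subunit, followed with -0.35 (SE 0.17, adjusted p = 0.528).

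In 3 of 57 members the groups separated completely, with all RHFD samples below all RND samples, and 0 members separated the other way. Over all probes the shares were 3.48% in this direction and 2.51% in the other. The count is close to what that share gives for 57 probes, so it does not set the members apart. The 3 members were Mrps7, Mrps27 and Mrpl14. Mrps7, whose bacterial counterpart organizes the head of the small subunit, ran from 9.68 to 10.08 in RND (median 9.78) and was 9.09 (3A), 9.50 (21B) and 9.54 (25B) in RHFD. Its log2 difference was -0.45 (SE 0.24, adjusted p = 0.569 by limma). Mrps27, an RNA-binding protein of the small subunit, differed by -0.35 (SE 0.21, adjusted p = 0.630) and Mrpl14 by -0.30 (SE 0.26, adjusted p = 0.780), the latter with a gap between the groups of 5.33 to 5.34.

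Mrps35 (0.21, SE 0.17, adjusted p = 0.753) and Mrpl13 (0.06, SE 0.15, adjusted p = 0.945) had the smallest p among the 10 members that were higher in RHFD. Both changed sign under median scaling, to -0.03 and -0.18. Mrps35 sits in the small subunit and Mrpl13 is a conserved protein of the large one.

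Some lists of related genes ran the same way in these rats and others did not, with none of their genes past the threshold. Lower in RHFD were 47 of 57 oxidative phosphorylation subunits (median -0.14), 18 of 21 assembly genes (median -0.22), 10 of 12 aminoacyl-tRNA synthetases (median -0.16), 17 of 26 import and protease genes (median -0.13) and 38 of 60 cytosolic ribosomal proteins (median -0.04). The mitochondrial translation factors ran the other way (7 of 11 higher, median 0.08). Genes for transcription and copying of mitochondrial DNA were split (8 higher and 9 lower, median -0.03), as were the 4 mitochondrial ribosomal proteins with other symbols (2 and 2, median -0.03). All 14 proliferation markers were lower (median -0.59), with none past the threshold. All 6 macrophage and dendritic cell markers were higher (median 1.34), with 3 past the threshold, and 11 of 11 T and natural killer cell markers were higher (median 1.10) with none past it. The mean level of the T and natural killer cell markers was 5.47 to 7.17 in RND and 7.10 to 7.70 in RHFD, with Cd4 and Trat1 detected on no array, and that of the proliferation markers 7.46 to 7.80 and 6.95 to 7.12. Of the 4 tested enteroendocrine markers 2 were higher and 2 lower (median 0.65). The 2 higher ones passed the threshold, Chgb by 1.96 and Chga by 1.38 (adjusted p = 0.0112 and 0.0274 by limma), and neither lower one did. Fabp4, 1 of the 2 tested adipocyte markers, fell by 3.88 (adjusted p = 0.000439 by limma). The median of the 2 was -1.95, and the other marker hardly differed. Their part in the members' values was not tested.

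Diet in control rats was assessed as CHFD against CND. Of the members 32 were higher and 25 lower, with a median of 0.02 against -0.002 for all probes. This split rested on single samples: without CND 32B 44 were higher and 13 lower (median 0.09), and without CND 36B 19 were higher and 38 lower (median -0.04). The median was 0.09 without CHFD 4A or CND 18A and 0.07 without CHFD 22B, and it was below 0 without CHFD 10B (-0.03), CHFD 8B (-0.04) or CND 38B (-0.03). None passed, against 1.3% of all probes, and 0 members had an unadjusted p under 0.05, against 10.8% of all. Under median scaling 11 were higher and 46 lower, with the median of all probes at -0.10. No member separated the groups, against 1.21% of all probes for higher and 0.5% for lower in CHFD.

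Mrpl34 (0.26, SE 0.15, adjusted p = 0.597 by limma) and Mrpl48 (0.28, SE 0.16, adjusted p = 0.601) had the smallest p among the members that were higher in CHFD. Mrpl34 was 9.47 ± 0.16 in CND (SD, n = 6) and 9.73 ± 0.21 in CHFD (SD, n = 5). On the lower side were Mrpl18, described separately, and Mrps30 (-0.24, SE 0.14, adjusted p = 0.592), a late addition to the large subunit. Mrps30 was 9.90 ± 0.23 in CND (n = 6) and 9.66 ± 0.25 in CHFD (n = 5).

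In the same rats the subunits of oxidative phosphorylation leaned down (41 of 57 lower, median -0.08), the cytosolic ribosomal proteins leaned up (44 of 60 higher, median 0.05), and none of either list passed. All 11 T and natural killer cell markers were higher (median 1.67), and 7 passed the threshold. Among these were Cd7, by 1.84 (SE 0.32, adjusted p = 0.00262 by limma), and Cd8a, by 2.40 (SE 0.48, adjusted p = 0.00784), on the log2 scale. The mean level of these 11 markers was 5.07 to 6.17 in CND and 6.50 to 8.63 in CHFD. All 6 macrophage and dendritic cell markers were higher (median 1.30), with 4 past the threshold. All 3 mast cell and granulocyte markers were higher (median 1.26), with 1 past it. Of the 4 colonocyte markers 2 were higher and 2 lower (median -0.10). Only Aqp8 among them, a water channel of surface colonocytes, passed, with a fall of 3.87 (adjusted p = 0.0041 by limma).

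Averaged over birth status, diet gave 16 members higher and 41 lower, with a median of -0.06. Without RHFD 3A the median was -0.01 (25 higher, 32 lower), without CHFD 4A -0.02 (26 higher, 31 lower), without CND 18A -0.03 and without CHFD 22B -0.04. It was -0.11 without CND 36B and -0.09 without CND 38B or RHFD 21B. None passed, against 4.28% of all probes, and 2 members (3.51%) had an unadjusted p under 0.05, against 13.9% of all. Under median scaling all 57 were lower, at a median of -0.24 against -0.10 for all probes, so the split depends on the scaling. The 2 members were Mrps30 (-0.26, SE 0.10, adjusted p = 0.220 by limma) and Mrps5 (-0.26, SE 0.12, adjusted p = 0.308). On the other side Mrps35 (0.16, SE 0.11, adjusted p = 0.642) and Mrpl34 (0.14, SE 0.12, adjusted p = 0.714) had the smallest p, and both were lower under median scaling, by -0.04 and -0.05.

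Among the related lists 1 gene passed for this averaged effect: Letm1, an ion exchanger of the inner mitochondrial membrane that has also been tied to mitochondrial ribosomes, fell by 0.43 (SE 0.11, adjusted p = 0.0283 by limma). It was 1 of 11 genes in the list of translation factors, of which 7 were lower. Of the 14 proliferation markers 12 were lower and 2 higher (median -0.59). Among them Ube2c fell by 1.14 and Cdk1 by 0.77, both past the threshold (adjusted p = 0.00634 and 0.0394 by limma). Goblet markers passed in both directions, Spink4 at -2.22 and Clca1 at 1.37, with 2 of 5 higher and 3 lower. Of the 4 enteroendocrine markers 2 were higher and 2 lower, and Chgb (1.31), Chga (0.78) and Gcg (-0.77) passed. Aqp8 (-3.30) alone passed among the 4 colonocyte markers, 2 of which were higher, and Fabp4 (-2.72) alone among the 2 adipocyte markers. All 11 T and natural killer cell markers, all 6 macrophage and dendritic cell markers and all 3 mast cell and granulocyte markers rose.

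The effect of IUGR on the high-fat diet compares RHFD with CHFD and split the members nearly evenly. There were 30 higher and 27 lower, with a median of 0.01, equal to the 0.01 of all probes. None passed, against 0.00981% of all probes, which is 1 probe, and 0 members had an unadjusted p under 0.05, against 1.04% of all. No member separated the groups, against 0.569% of all probes for higher and 0.844% for lower. Within chip 1, 8 members were higher, and within chip 2, 41 were. Both chips hold all RHFD samples, but chip 1 holds CHFD 10B, 28B and 8B, and chip 2 holds CHFD 10B, 4A and 22B. Whether the chip or the samples set this difference was not tested. The split depended on the scaling, with 46 higher and 11 lower under median scaling. It also depended on single samples: 47 were higher without RHFD 3A, 45 without CHFD 10B and 44 without CHFD 8B, against 15 without CHFD 4A, 19 without RHFD 21B, 20 without CHFD 22B, 22 without RHFD 25B and 28 without CHFD 28B, with a median below 0 in these last 5. The smallest p among the higher members belonged to Mrpl50 and Mrps2 (0.29, SE 0.26), and among the lower ones to Mrps10 (-0.40, SE 0.35) and Mrpl51 (-0.19, SE 0.27), each with an adjusted p of 1.00 by limma.

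Other lists did lean in this comparison, with none of their genes past the threshold. Higher in RHFD were 49 of 57 oxidative phosphorylation subunits (median 0.07), 48 of 60 cytosolic ribosomal proteins (median 0.04) and 9 of 11 mitochondrial translation factors (median 0.16). The proliferation markers were lower for 13 of 14 (median -0.20), the macrophage and dendritic cell markers higher for 5 of 6 (median 0.67) and the T and natural killer cell markers higher for 11 of 11 (median 0.10).

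Averaged over diet, 45 of 57 members were higher in IUGR rats (78.9%, against 50.1% of all probes), with a median of 0.13. None passed, against 0.00981% of all probes, and 2 members had an unadjusted p under 0.05, Mrpl50 and Mrpl3 (0.25, SE 0.11, adjusted p = 1.00 by limma). Mrps10 (-0.35, SE 0.22) and Mrpl1 (-0.12, SE 0.12) had the smallest p among the 12 lower members. The median was -0.02 within chip 1, where 25 members were higher, and 0.21 within chip 2, where 51 were. Under median scaling 51 were higher, and without RHFD 25B the median was 0.08. Similar lists leaned alike for this effect, with 50 of 57 oxidative phosphorylation subunits higher (median 0.12) and 49 of 60 cytosolic ribosomal proteins (median 0.09), none past the threshold.

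The interaction asks whether the diet effect differs between birth groups, and equally whether the IUGR effect differs between diets. It was negative for 48 of 57 members (84.2%), with a median of -0.21 against -0.02 for all probes, and 15.8% were positive against 47.4% of all. No member and no other probe passed (0% called), and 1 member (1.75%) had an unadjusted p under 0.05, against 4.05% of all. That member was Mrps17 (-0.48, SE 0.22, adjusted p = 0.972 by limma), followed by Mrps5 (-0.49, SE 0.24, adjusted p = 0.972). Mrpl47 (0.18, SE 0.24) and Mrpl18 (0.80, SE 1.25) had the smallest p on the positive side. The median was -0.10 without RHFD 3A, -0.13 without CHFD 10B, -0.14 without CND 36B and -0.35 within chip 1.

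The direction of each effect was compared across the other factor, between comparisons that share no samples. For diet, 6 members were higher in both control and IUGR rats, 21 were lower in both and 30 ran opposite ways (10.5%, 36.8% and 52.6%). Over all probes these shares were 27.4%, 28.2% and 44.4%. For IUGR, 26 members were higher on both diets, 5 lower on both and 26 opposite (45.6%, 8.77% and 45.6%), against 25.7%, 23.0% and 51.2% of all probes.

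**Figure D4:**
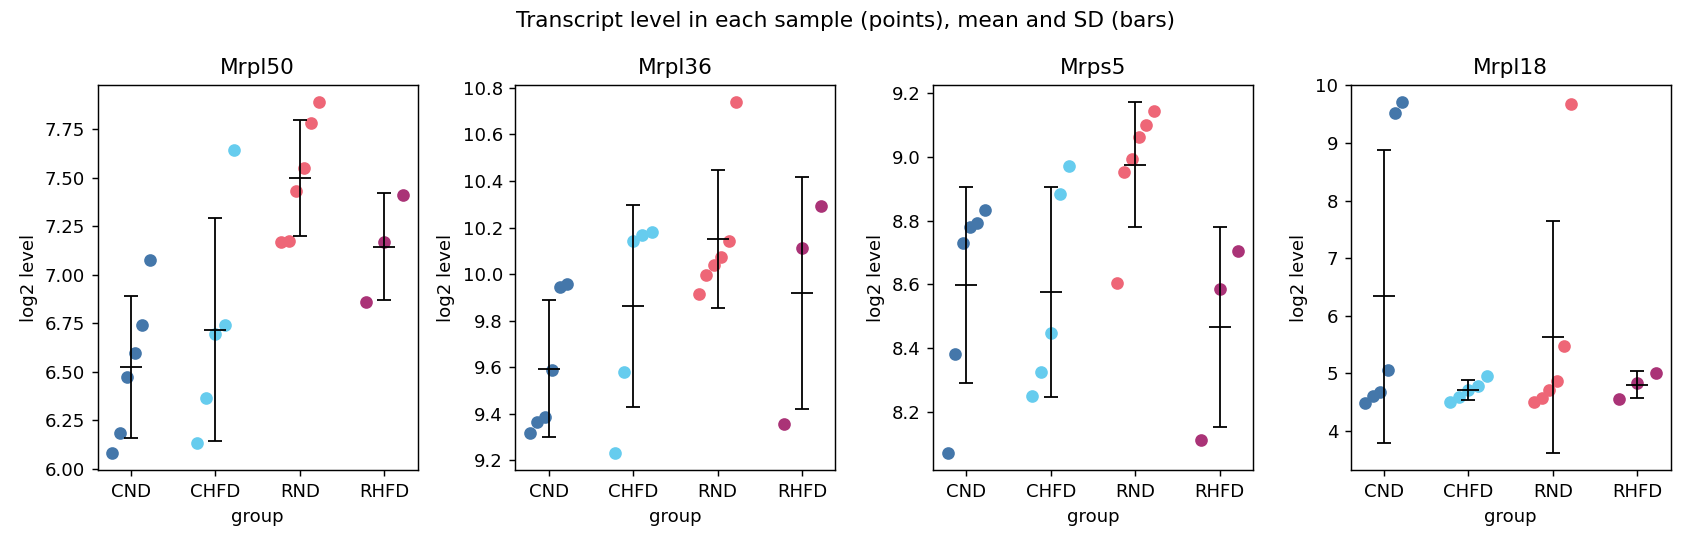
Log2 level of Mrpl50, Mrpl36, Mrps5 and Mrpl18 in each sample (points) by group, with mean and SD (bars; n = 6 CND, 5 CHFD, 6 RND and 3 RHFD). Mrpl50 is above 7.1 in every RND sample and at most 7.08 in CND, and Mrpl18 is near 9.6 in 3 samples and below 5.5 in the other 17.

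Mrpl18, a large subunit protein whose bacterial counterpart binds the smallest ribosomal RNA (chromosome 1), stood apart from every other member. In CND it was 4.48 (20A), 4.60 (14A), 4.68 (18A), 5.05 (32B), 9.52 (36B) and 9.70 (38B). In RND it was between 4.50 and 5.48 in 5 samples and 9.67 in 35B. In CHFD it was 4.50 to 4.95 and in RHFD 4.55 to 5.01. The 3 high samples were thus 4.05 log2 units above the highest of the other 17, and all 3 were hybridized on chip 2 and carry the letter B.

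No other of the 10193 probes tested shared this pattern at a like size. For the next of them, which has no gene symbol, the gap between the same 3 samples and the other 17 was 0.46. Gaps of more than 2 log2 units between samples next to each other in rank, with at least 2 samples on either side, occurred in 1 of 57 members (1.75%) and in 23 of all probes tested (0.226%). Tcp1, whose start lies next to that of Mrpl18, ran from 9.84 to 10.69 over all samples and was 10.03, 10.23 and 9.97 in the 3 samples with high Mrpl18. What sets the level of this probe was not tested. Its difference in CHFD against CND was -1.63 (SE 0.82, adjusted p = 0.494 by limma), carried by CND 36B and 38B, and it was 0.18 within chip 1, which holds neither. Mrpl18 passed the detection filter on 3 CND, 1 CHFD, 3 RND and 2 RHFD arrays, so most of its levels are at background.

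Mrps10, whose bacterial counterpart sits in the head of the small subunit, was also uneven. In CND it was 4.57 to 4.78 in 4 samples and 6.11 (18A) and 6.50 (32B) in the other 2, and in CHFD it was 4.66 to 4.96 in 4 samples and 5.95 in 22B. All RND samples (4.54 to 5.25) and RHFD samples (4.50 to 4.74) were below these 3. It was detected on 12 of 24 arrays, so its low values are near background.

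The chips themselves differed in many members. Of the 57, 5 rose and 9 fell on chip 2 against chip 1, a total of 14 past the threshold, against 15.3% of all probes. Mrpl41 (0.58, SE 0.10, adjusted p = 0.000539 by limma) and Mrpl51 (0.50, SE 0.10, adjusted p = 0.00181) were higher on chip 2, and Mrpl32 (-0.31, SE 0.05, adjusted p = 0.000631) and Mrps30 (-0.31, SE 0.06, adjusted p = 0.00162) lower. Among the 4 samples with an array on each chip, the median difference of the members between the arrays was between -0.03 and 0.02, and the SD over members 0.23 to 0.30. The chip is a term in every comparison and each group has 3 arrays on each chip.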

How the data were processed

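Illumina rat arrays were read with GenomeStudio, per the submitters' processing notes, which give no version. The deposited table holds, per the file headers, a signal intensity and a detection p-value for each of 22523 probes on 24 arrays (lowest intensity 72, median per array 92 to 112, mean 309 to 571, 8303 to 9872 probes detected). The number of arrays limits precision. The deposited series matrix, with intensities at array medians of 100.2 to 100.4, served as an alternative.

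Log2 levels came from neqc (limma 3.58.1, R 4.3.3, statmod 1.5.0), which subtracts a background inferred from the detection p-values, adds an offset of 16 and quantile normalizes. Probes with detection p under 0.05 on at least 6 arrays were tested (10193, of which 7483 have a symbol in the platform table). The limma model held the 4 groups, the chip and the title number as random block (estimated correlation 0.812), with Benjamini-Hochberg adjustment over all tested probes in each of 7 comparisons. SDs are over samples, arrays of a title number averaged first. The functions were tested on simulated data.

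Members, lists, tests and alternatives were chosen with earlier results of these data known. By rule the text names up to 12 members past the threshold per direction and comparison, or else the 2 with the smallest p, the 3 highest and lowest in level and spread, and those nearest the detection rule. Members that separate groups, other members with an unadjusted p under 0.05 and promoter neighbours were named after their values were seen. Alternatives were no background correction, median scaling, the series matrix, other filters, no chip term, single chips, the title letter, averaged arrays, only the groups compared and each sample left out.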

Additional observations from a re-analysis of the deposited data

Results flagged for a closer look

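In 54 sets of values of 1 group (18 members or medians in the 3 groups large enough), 5 held a sample whose gap to its nearest neighbour was large for the group's range by Dixon's test, where chance gives about 1 in 20. Mrpl18 was 9.67 in RND 35B, against 5.48 for the next RND sample. Mrps10 was 5.95 in CHFD 22B, against 4.96 for the next. Mrpl36 was 10.74 in RND 17B, above 10.14 for the next. Mrps5 was 8.60 in RND 39B, below 8.95 for the next. The median deviation of the members was 0.319 in RND 17B, against 0.137 for the next RND sample.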

How the results depend on the processing

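Over the alternatives run, 0 members passed in 6 of the comparisons. For birth status averaged over diet the count was 0 to 1 with samples left out in turn, and the 1 member was Mrpl50, without CHFD 28B. The median difference of the members ranged from 0.15 to 0.34 for RND minus CND and from -0.34 to -0.05 for RHFD minus RND, with no change of sign; for diet averaged it was -0.24 to -0.01 and for the interaction -0.35 to -0.10. It changed sign for CHFD minus CND (-0.13 to 0.09), RHFD minus CHFD (-0.12 to 0.13) and birth status averaged over diet (-0.02 to 0.21). Named members changed sign, none past the threshold, as follows. Within chip 2, Mrpl1 was 0.0575 for birth status averaged and 0.0300 for RND minus CND, Mrpl47 was 0.0394 for RND minus CND, and Mrpl51 was 0.0637 for RHFD minus CHFD. Within chip 1, Mrpl18 was 0.184 for CHFD minus CND and -0.216 for the interaction. Under median scaling, Mrpl13 was -0.177 and Mrps35 -0.0337 for RHFD minus RND, and Mrpl34 was -0.0529 and Mrps35 -0.0445 for diet averaged. With the title letter as a term, the value of Mrpl13, RHFD minus RND, was -0.00284. The causes were not tested. Over all probes the number past the threshold was 132 for CHFD minus CND (5 to 198 over the alternatives), 90 for RHFD minus RND (8 to 151), 436 for diet averaged (126 to 536) and 0 or 1 for the other comparisons (0 to 3). With CHFD and CND arrays alone the correlation within title numbers could not be estimated, and the value from all arrays was used. No paired analysis was possible because the groups share no title number. Mrpl18, Mrps10 and Mrps15 lie near background on most arrays, where levels depend on the correction.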
